A study of Mus musculus with 6 samples.

Results

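The genes described here are 35 genes of glucose entry, glycolysis and glycogen metabolism, in liver and non-liver isozymes, out of 22180 genes measured on the arrays. They were taken from a list of symbols by function, by a rule that used no measured change, and all 35 were measured. A gene was kept where the array annotation paired a probe set with that 1 symbol, and the probe set with the highest mean over the arrays stood for the gene. The series holds 6 Affymetrix MoGene-2_0-st arrays, which measure RNA from probe brightness, of primary hepatocytes, liver cells freshly isolated and cultured, from wild-type adult male C57Bl/6 mice. Cells on 3 arrays had received GW4064 at 2 µM, which activates FXR, the nuclear receptor for bile acids (gene Nr1h4), and cells on the other 3 had received DMSO, the solvent. Exposure lasted 4 h in William's medium without serum on all 6 arrays, so the 2 groups share the strain, sex, medium and time and differ in the compound. The design text names 3 independent preparations of hepatocytes, and each group carries the replicate numbers 1, 2 and 3, but the labels state neither that the numbers stand for the preparations nor whether a preparation came from 1 mouse or several.

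Glycolysis splits glucose into pyruvate, and its flow is set at the steps of glucose phosphorylation, phosphofructokinase and pyruvate kinase, while the steps between them run in either direction. Liver stores glucose as glycogen: glycogen synthase builds it, glycogen phosphorylase breaks it down, and phosphorylase kinase and glycogen-targeting subunits of protein phosphatase 1 switch both enzymes. Hepatocytes use their own forms of many of these proteins, such as the transporter GLUT2 (Slc2a2), liver pyruvate kinase (Pklr), liver glycogen synthase (Gys2) and liver phosphorylase (Pygl), and FXR has been linked to the control of hepatic glucose use, including restraint of the liver pyruvate kinase gene in human hepatocytes.

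Promoter sequences are shown for 3 of the genes because they carry motifs through which glucose-responsive and nuclear receptor factors are known to act. Action at the printed sites was not tested here. They are the 250 bases before an annotated transcription start, 5′ to 3′ along the gene, from RefSeq on GRCm38.p6, whose promoter table matched 33 of the 35 genes. Capitals mark the motif. For Pklr, they mark the letters CACGNG and CNCGTG with 5 bases between them, the layout of a carbohydrate response element. For Pfkfb3 they mark the E-box CACGTG, and for Slc2a2 the nuclear receptor half-site AGGTCA.
Pklr (chr3:89136373-89136622, plus strand): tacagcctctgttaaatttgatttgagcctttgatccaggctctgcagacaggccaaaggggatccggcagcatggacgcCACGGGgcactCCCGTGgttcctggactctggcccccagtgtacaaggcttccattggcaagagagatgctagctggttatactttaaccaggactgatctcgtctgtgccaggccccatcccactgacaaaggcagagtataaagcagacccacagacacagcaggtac
Pfkfb3 (chr2:11502091-11502340, minus strand): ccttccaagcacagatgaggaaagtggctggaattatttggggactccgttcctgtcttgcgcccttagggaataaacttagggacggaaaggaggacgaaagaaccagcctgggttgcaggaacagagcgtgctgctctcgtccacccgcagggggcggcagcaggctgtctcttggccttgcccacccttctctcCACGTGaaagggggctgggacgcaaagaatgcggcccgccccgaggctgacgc
Slc2a2 (chr3:28697653-28697902, plus strand): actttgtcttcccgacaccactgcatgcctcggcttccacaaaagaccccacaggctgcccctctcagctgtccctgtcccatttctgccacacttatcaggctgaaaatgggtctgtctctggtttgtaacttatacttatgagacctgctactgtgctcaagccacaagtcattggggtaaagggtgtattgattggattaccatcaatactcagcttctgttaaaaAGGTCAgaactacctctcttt

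The spaced pair of 6-letter motifs occurred in 0.0396% of all 32851 promoters in the table and in 1 of the 43 promoters of the 33 genes, that of Pklr. The E-box was present in 6.02% of all promoters and in 4 of these 43, of Ldha, Pfkfb3, Pfkm and Ppp1r3c. The half-site was present in 14.0% of all promoters and in 6 of the 43, of Eno3, Pfkm, Pklr, Pkm, Pygl and Slc2a2, a share near that of all promoters. Both strands were searched, no letters of one motif overlapped another in the printed matches, and a match describes the letters and not a bound site.

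The 3 FXR targets taken as a check of the response all rose with GW4064. Abcb11, the bile salt export pump, measured 8.14, 7.81 and 7.96 log2 units on the GW4064 arrays and 5.09, 4.83 and 4.74 on the DMSO arrays, a rise of 3.08 (SE 0.13, limma adjusted p = 3.70e-05). Nr0b2, the repressor SHP, rose by 2.37 (adjusted p = 1.17e-04) and Abcb4, a phospholipid transporter, by 1.29 (adjusted p = 0.0343). The call of Abcb4 was lost without GW4064 replicate 1 (adjusted p = 0.230), 2 (0.0880) or 3 (0.111) and without DMSO replicate 1 (0.151) or 2 (0.0557). It was also lost with a replicate number left out of both groups. Over 16 alternative fits the call was lost in 8, with an adjusted p of up to 0.732. All 9 measured hepatocyte markers lay above the median gene level of 4.20 log2 units, and their mean level per array ran from 9.49 to 9.73 with GW4064 and from 9.57 to 9.75 with DMSO. The macrophage list averaged 4.12 to 4.37 with GW4064 and 4.20 to 4.39 with DMSO, with 2 of its 7 markers above the median gene level. The means of the endothelial, stellate, bile duct and blood lists lay between 2.62 and 5.22 with GW4064 and between 2.75 and 5.07 with DMSO. The bile duct list averaged 4.99, 5.22 and 5.21 with GW4064, against 4.85, 5.07 and 4.96 with DMSO. All 4 of its measured markers averaged higher, against 44.6% of all genes, with Sox9 at 0.45 (limma adjusted p = 0.858). Of the stellate, endothelial and blood markers, 6 of 7, 3 of 7 and 0 of 2 averaged higher. No marker of these 6 lists passed the test between GW4064 and DMSO. On arrays of bulk RNA, fewer cells of a type and less RNA per cell cannot be told apart.

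None of the 35 glycolysis and glycogen genes passed the limma test between GW4064 and DMSO at an adjusted p under 0.05, with adjustment over all 22180 genes, of which 0.0496% (11) passed. With the replicate number as a block, again 0 of 35 passed, against 0.0812% (18) of all genes. At an unadjusted p under 0.05, 0 of the 35 passed without the block, against 5.66% of all genes. With the block, 5 of the 35 passed, Gys2, Pfkfb3, Phka2, Gckr and Ppp1r3c, all of them lower with GW4064, against 5.12% of all genes that were lower at that threshold. The smallest adjusted p among the 35 was 0.918 without the block and 0.350 with it.

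By direction alone, 31 of the 35 genes averaged lower with GW4064 (88.6%, against 55.4% of all genes and 60.7% of genes above the median level). Gapdh, Eno2, Eno3 and Pygl averaged higher. This count moved with the arrays kept: 19 of the 35 were lower without GW4064 replicate 2 (54.3%, against 54.7% of all genes). Without DMSO replicate 3, 20 were lower (57.1%, against 55.1%), and with quantile normalization 28. The fits without 1 array had no block and kept its same-numbered partner. With number 1, 2 or 3 left out of both groups, 29, 24 and 25 were lower. These are 82.9%, 68.6% and 71.4%, against 54.2%, 55.3% and 54.4% of all genes. The median change was -0.082 on the log2 scale (range -0.35 to 0.20), against -0.016 over all genes, and the median size of change regardless of sign was 0.095, against 0.082. In same-numbered pairs of arrays the direction was less even: 20, 26 and 28 of the 35 genes were lower with GW4064 in pairs 1, 2 and 3, with medians of -0.015, -0.13 and -0.13, against -0.019, -0.012 and -0.019 over all genes. In all 3 pairs 13 genes were lower (37.1%, against 18.6% of all genes) and 1, Pygl, was higher, against 12.6% of all genes. All 3 GW4064 arrays lay below all 3 DMSO arrays for 3 genes, Pfkm, Phka2 and Phkg2 (8.57%, against 6.19% of all genes), and above them for 1, Pygl, against 4.58% of all genes. The genes were measured on the same 6 arrays and are not independent of one another, so these shares describe the arrays and carry no test.

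For 31 of the 35 genes the 95% interval of the fold change lay within 1.5-fold either way (88.6%, against 92.2% of all genes). The exceptions were Gys2 (0.460 to 1.34), Pfkl (0.644 to 1.22), Pfkp (0.632 to 1.25) and Pfkfb3 (0.648 to 1.06). With the replicate block all 35 intervals lay within that bound, against 95.5% of all genes.

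**Figure D1:**
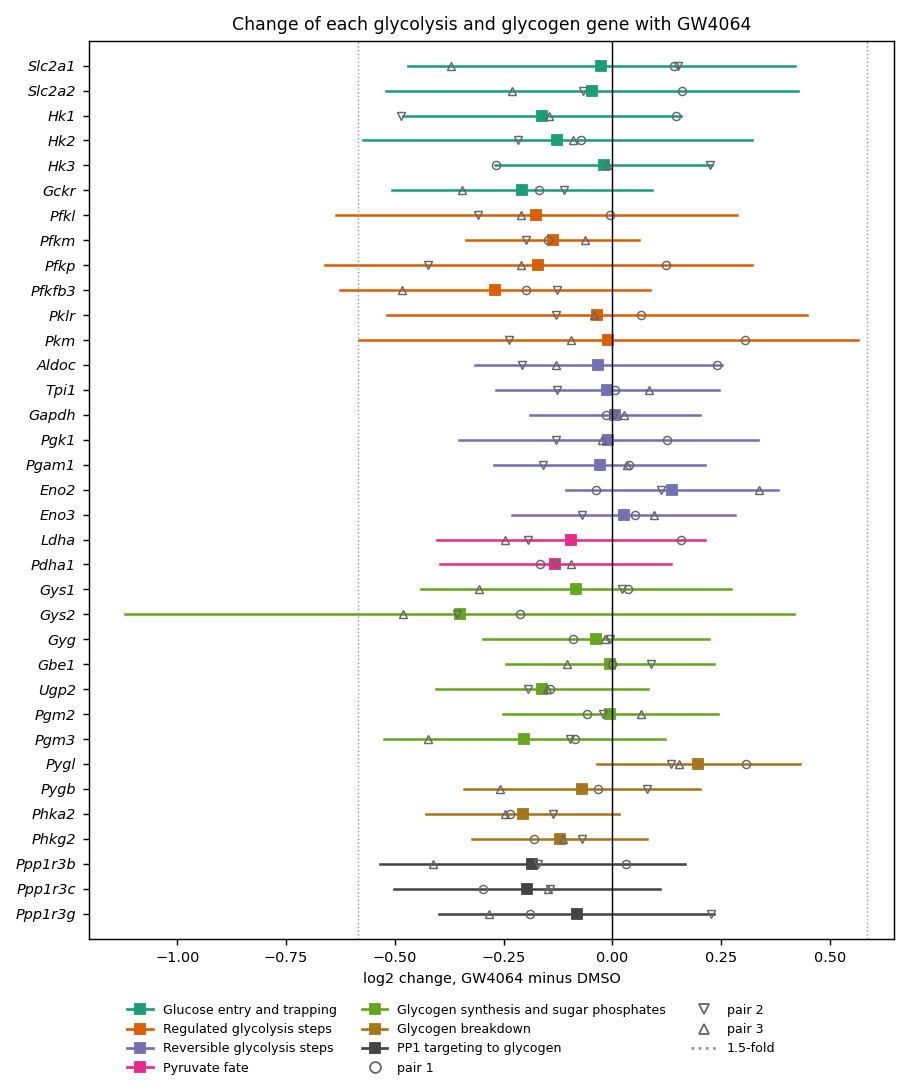
Change of each of the 35 genes, as log2 intensity with GW4064 minus DMSO; squares are means over 3 arrays a group with 95% limma intervals, open symbols the same-numbered pairs, colours the roles, and dotted lines mark 1.5-fold. Each interval includes 0, 31 squares lie left of 0, and the widest interval is that of Gys2.

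**Figure D2:**
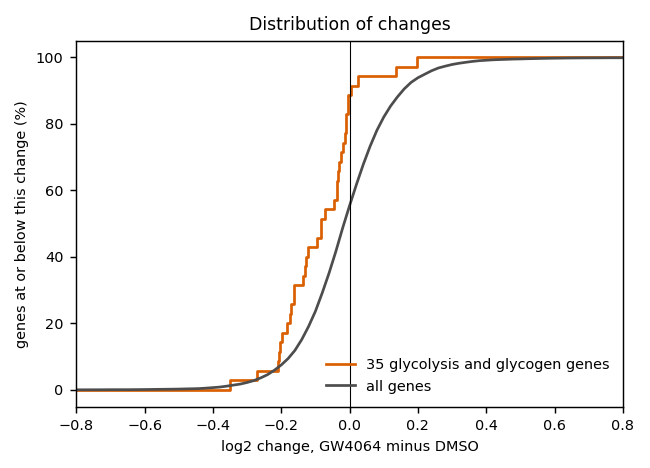
Percent of genes at or below each log2 change (GW4064 minus DMSO) for the 35 glycolysis and glycogen genes and for all 22180 genes. At a change of 0 the curve of the 35 genes has reached 88.6%, against 55.4% for all genes, and it spans -0.35 to 0.20.

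All 6 genes of glucose entry and trapping averaged lower with GW4064, by -0.087 in the median, and none passed the test. Slc2a2 encodes GLUT2, the high-capacity glucose transporter of hepatocytes. It measured 10.03, 9.25 and 9.42 log2 units with GW4064, against 9.87, 9.31 and 9.66 with DMSO. Replicate 1 was highest in both groups, the groups overlapped, and the change was -0.047 (SE 0.21, adjusted p = 0.998). Slc2a1, the widespread transporter GLUT1, measured 8.61, 8.37 and 8.69 with GW4064, against 8.47, 8.22 and 9.06 with DMSO. Here replicate 3 was highest in both groups, the groups overlapped, and the change was -0.026 (SE 0.20, adjusted p = 0.999). A second probe set of Slc2a1 differed in sign, at 0.12.

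Gckr, a regulatory protein of glucose phosphorylation in liver, measured 6.51, 6.67 and 6.21 with GW4064, against 6.68, 6.78 and 6.55 with DMSO. It was lower with GW4064 in each pair although the groups overlapped, and the change was -0.21 (SE 0.13, adjusted p = 0.961; 0.545 with the block). Without GW4064 replicate 3 it was -0.08 and without GW4064 replicate 2 it was -0.31. Among the hexokinases, which phosphorylate glucose at low concentrations and are not the main form of the adult liver, Hk2 measured 4.99, 5.09 and 4.52 with GW4064, against 5.06, 5.30 and 4.61 with DMSO. It was lowest in replicate 3 of both groups and lower with GW4064 in each pair, by -0.13 on average (SE 0.20, adjusted p = 0.998). Hk1 measured 3.79, 3.26 and 3.67 with GW4064, against 3.64, 3.74 and 3.82 with DMSO. Its lowest value was GW4064 replicate 2, pair 1 ran the other way, and the change was -0.16 (SE 0.14, adjusted p = 0.997), or -0.0041 without that array and -0.27 without GW4064 replicate 1. Hk3 measured 3.62, 3.81 and 3.67 with GW4064, against 3.89, 3.59 and 3.68 with DMSO. Its pairs differed in sign and the change was -0.020 (SE 0.11, adjusted p = 0.999). Hk1 and Hk3 lay below the median gene level.

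The 6 genes of the regulated glycolytic steps also all averaged lower with GW4064, by -0.15 in the median, and none passed the test. Pfkfb3 makes fructose 2,6-bisphosphate, the activator of phosphofructokinase. It measured 5.43, 5.40 and 4.87 with GW4064, against 5.63, 5.53 and 5.35 with DMSO. GW4064 replicate 3 stood lowest, each GW4064 array lay below its DMSO partner, and GW4064 replicates 1 and 2 overlapped with DMSO replicate 3. The change was -0.27 (SE 0.16, adjusted p = 0.957; 0.502 with the block), and -0.09 without GW4064 replicate 3.

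The phosphofructokinase subunits catalyse the committed step. The liver subunit Pfkl measured 6.84, 6.44 and 7.15 with GW4064, against 6.85, 6.75 and 7.36 with DMSO. Replicate 3 was highest and replicate 2 lowest in both groups, and the change was -0.18 (SE 0.20, adjusted p = 0.998). The platelet subunit Pfkp had the same order of replicates with GW4064 and DMSO, at 7.24, 6.63 and 7.42 with GW4064, against 7.12, 7.05 and 7.63 with DMSO. Its groups overlapped, pair 1 was higher with GW4064, and the change was -0.17 (SE 0.22, adjusted p = 0.998). The muscle subunit Pfkm, low on these arrays, measured 3.67, 3.70 and 3.76 with GW4064, against 3.82, 3.90 and 3.82 with DMSO. Every GW4064 array lay below every DMSO array, and the change was -0.14 (SE 0.09, adjusted p = 0.961).

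Pyruvate kinase makes pyruvate at the last step. Pklr, the liver form, measured 10.13, 9.52 and 9.39 with GW4064, against 10.07, 9.65 and 9.43 with DMSO. Both groups had the same order of replicate numbers, with 1 highest and 3 lowest, and no separation by treatment. The change was -0.035 (SE 0.21, adjusted p = 0.999), a fold change of 0.976 with a 95% interval of 0.698 to 1.36, or of 0.850 to 1.12 with the replicate block. Pkm, the form of muscle and many dividing cells, measured 9.19, 8.31 and 9.18 with GW4064, against 8.88, 8.55 and 9.27 with DMSO. Replicate 2 was lowest in both groups, and the change was -0.0092 (SE 0.25, adjusted p = 0.999). The sign of this change turned under quantile normalization, at 0.0094.

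The 7 genes of the reversible steps had the smallest median change of the 7 roles, -0.010, with 4 of them lower with GW4064. Gapdh, glyceraldehyde-3-phosphate dehydrogenase, averaged 12.33 ± 0.03 with GW4064 and 12.33 ± 0.03 with DMSO (SD, n = 3 each), a change of 0.0053 (SE 0.09, adjusted p = 0.999). Other probe sets of Gapdh, at mean levels of 12.28 and 9.18, had changes of 0.03 (SE 0.09) and 0.12 (SE 0.11). Pgk1, phosphoglycerate kinase, averaged 10.63 ± 0.23 with GW4064 and 10.64 ± 0.24 with DMSO. Tpi1, triose phosphate isomerase, averaged 10.49 ± 0.18 with GW4064 and 10.50 ± 0.08 with DMSO. The changes of Pgam1, phosphoglycerate mutase, and Aldoc, the brain aldolase, were -0.030 and -0.033. Neither differed by more than its SE. A second probe set of Pgam1 had a change of -0.06 (SE 0.16). Eno3, the muscle enolase, measured 5.63, 5.48 and 5.83 with GW4064, against 5.58, 5.56 and 5.73 with DMSO, a change of 0.026 (SE 0.11, adjusted p = 0.998). Eno2, the neuronal enolase, measured 3.67, 3.70 and 3.97 with GW4064, against 3.71, 3.59 and 3.63 with DMSO. GW4064 replicate 3 stood highest, the other arrays overlapped, and the change was 0.14 (SE 0.11, adjusted p = 0.985), or 0.04 without that array. Of the pyruvate-using enzymes, Ldha, lactate dehydrogenase A, had a change of -0.095 (SE 0.14) and Pdha1, a subunit of pyruvate dehydrogenase, one of -0.13 (SE 0.12), with Pdha1 lower in each pair. Gapdh, Pgk1, Tpi1, Pgam1, Ldha and Pkm have processed pseudogenes, so part of their signal could be shared.

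The glycogen synthesis genes held the largest mean difference of the 35, at Gys2, the liver glycogen synthase. Gys2 measured 7.13, 6.31 and 5.81 with GW4064, against 7.35, 6.67 and 6.29 with DMSO. Each GW4064 array lay below its same-numbered DMSO array, by -0.21, -0.36 and -0.48, yet the groups overlapped, and the replicate numbers stood further apart than the treatments. Without the block the change was -0.35 (SE 0.34, 95% interval -1.12 to 0.42, adjusted p = 0.998). With the block the unadjusted p was 0.00643 and the fold change had an interval of 0.677 to 0.909, but the adjusted p over all genes was 0.350 and the change did not pass. The fits that left out 1 array had no block and kept its same-numbered partner, so differences between replicate numbers entered them. In these fits the change was -0.71 without GW4064 replicate 1 and -0.59 without DMSO replicate 3. It was -0.05 without GW4064 replicate 3 and -0.06 without DMSO replicate 1.

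The other 6 genes of this group also averaged lower with GW4064 and did not pass. Gys1, the muscle glycogen synthase, measured 5.32, 5.34 and 5.55 with GW4064, against 5.28, 5.32 and 5.86 with DMSO. The groups overlapped, DMSO replicate 3 stood highest, and the change was -0.083 (SE 0.16, adjusted p = 0.998). Ugp2, which makes UDP-glucose, the donor for glycogen, averaged 9.61 ± 0.11 with GW4064 and 9.77 ± 0.13 with DMSO (SD, n = 3 each) and was lower in each pair, a change of -0.16 (SE 0.11, adjusted p = 0.963). Gyg, the primer protein glycogenin, was likewise lower in each pair, by -0.038 on average (SE 0.11). Gbe1, the branching enzyme, had a change of -0.0059 (SE 0.11). Pgm3, a mutase of the hexosamine pathway, had a change of -0.20 (SE 0.14, adjusted p = 0.963) and was lower in each pair. Pgm2, mainly a phosphopentomutase, had a change of -0.0047 (SE 0.11). The phosphoglucomutase Pgm1, the main one of glycogen synthesis, was not analysed here.

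Glycogen breakdown held the gene with the largest mean difference in the other direction. Pygl, the liver glycogen phosphorylase, measured 7.71, 7.43 and 7.51 with GW4064, against 7.40, 7.30 and 7.36 with DMSO. Every GW4064 array lay above every DMSO array, with GW4064 replicate 1 highest. The change was 0.20 (SE 0.10, 95% interval -0.03 to 0.43, adjusted p = 0.932; 0.550 with the block), so it did not pass, and it was 0.12 without GW4064 replicate 1. Pygb, the brain phosphorylase, measured 6.40, 6.20 and 6.10 with GW4064, against 6.43, 6.12 and 6.36 with DMSO. Its groups overlapped and its change was -0.071 (SE 0.12, adjusted p = 0.998).

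Phosphorylase kinase activates phosphorylase, and 2 of the 35 genes encode its liver subunits. Phka2, the liver regulatory subunit, measured 7.19, 7.29 and 7.06 with GW4064, against 7.42, 7.42 and 7.31 with DMSO. All 3 GW4064 arrays lay below all 3 DMSO arrays, and the change was -0.21 (SE 0.10, adjusted p = 0.918; 0.518 with the block). Phkg2, the liver catalytic subunit, averaged 6.76 ± 0.07 with GW4064 and 6.88 ± 0.02 with DMSO (SD, n = 3 each), a change of -0.12 (SE 0.09, adjusted p = 0.971). Its arrays did not overlap either, and 6.19% of all genes showed such a separation. Of the other subunit genes measured, Phka1 had a change of -0.087 (SE 0.09), Phkb of -0.15 (SE 0.11) and Phkg1 of -0.15 (SE 0.19), and in each the groups overlapped. None of the 5 passed.

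The 3 glycogen-targeting subunits of protein phosphatase 1, which bring the phosphatase to glycogen, averaged lower with GW4064, by -0.18 in the median. Ppp1r3c measured 3.25, 3.17 and 3.55 with GW4064, against 3.55, 3.32 and 3.70 with DMSO. It was lower with GW4064 in each pair, the groups overlapped, and the change was -0.20 (SE 0.14, adjusted p = 0.963; 0.548 with the block). It ran from -0.31 without GW4064 replicate 3 to -0.11 without DMSO replicate 3, with -0.12 without GW4064 replicate 2 and -0.30 without DMSO replicate 2. Ppp1r3b, the main form in liver, had a change of -0.18 (SE 0.15, adjusted p = 0.994), but a second probe set of it showed 0.02. Ppp1r3g had a change of -0.082 (SE 0.14, adjusted p = 0.998). Ppp1r3c and Ppp1r3g lay below the median gene level, as did Hk1, Hk3, Pfkm and Eno2, and the remaining 29 genes lay above it.

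**Figure D3:**
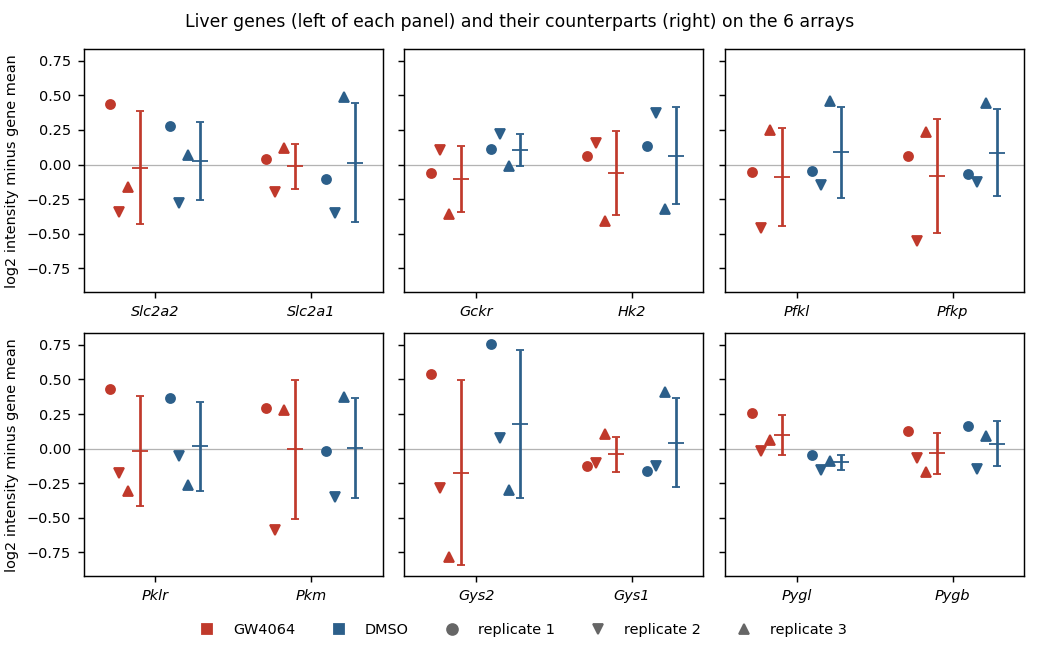
Deviation of log2 intensity from each gene's own 6-array mean for liver genes and a non-liver counterpart (Gckr is set beside Hk2), with GW4064 left of DMSO, symbols for replicate numbers, and bars for the mean ± SD of 3 arrays. Levels of different genes are not comparable. The groups overlap in 11 of the 12 genes shown, Pygl being the exception. Of all genes, 4.58% had all GW4064 arrays above all DMSO arrays and 6.19% had them below. Pfkm, whose groups did not overlap, is not drawn.

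The second comparison set the replicate numbers against one another, whatever the treatment. The range of the 3 replicate-number means, each over 1 GW4064 and 1 DMSO array, had a median of 0.29 over the 35 genes, against 0.19 over all genes. In limma's F test of replicate number, with group in the model, 15 of the 35 genes reached an unadjusted p under 0.05, or 42.9%, against 14.8% of all genes and 20.1% of genes above the median level. After adjustment over all genes 1 passed, Gys2, against 1.07% of all genes.

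Gys2 had replicate-number means of 7.24, 6.49 and 6.05, a range of 1.19 (adjusted p = 0.0231). This call was lost without GW4064 replicate 2 (adjusted p = 0.0651), GW4064 replicate 3 (0.110), DMSO replicate 2 (0.0587) or DMSO replicate 3 (0.117), and it held without GW4064 replicate 1 (0.0411) or DMSO replicate 1 (0.0251). The count also moved with the fit. Among genes above the median level, 29 of the 35 were tested. Of these, 6 passed, Gys2, Pklr, Hk2, Pkm, Pfkl and Slc2a2, against 6.03% of all genes above that level. With a mean-dependent, robust prior 13 passed, against 8.37%.

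The 15 genes did not share 1 order of the replicate numbers. Number 1 was highest for 5 of them, Gys2, Pklr, Slc2a2, Pfkfb3 and Pdha1. Among these, Pklr had means of 10.10, 9.58 and 9.41 (adjusted p = 0.0707) and Slc2a2 of 9.95, 9.28 and 9.54 (adjusted p = 0.133). Number 3 was highest for 8, Slc2a1, Pfkl, Pfkp, Pkm, Pgk1, Gys1, Ppp1r3b and Ppp1r3c. Of these, Pkm had means of 9.03, 8.43 and 9.22 (adjusted p = 0.124) and Pfkl of 6.84, 6.60 and 7.25 (adjusted p = 0.115). Number 2 was highest for Hk2 and Gckr, and Hk2 had means of 5.03, 5.19 and 4.56 (adjusted p = 0.0874). The transporters, pyruvate kinases and glycogen synthases had the liver form highest in number 1 and the other form in number 3. The other pairs drawn in the isozyme plot did not: Pfkl and Pfkp were both highest in number 3, Pygl and Pygb both in number 1, and Gckr and Hk2 both in number 2.

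Markers of several cell types differed between replicate numbers too, in no single order. At an unadjusted p under 0.05, 4 of the 9 measured hepatocyte markers, 3 of 7 macrophage and 5 of 7 endothelial markers differed. So did 0 of 7 stellate, 2 of 4 bile duct and 0 of 2 blood markers, against 14.8% of all genes. After adjustment 1 hepatocyte and 1 macrophage marker passed, against 1.07% of all genes. Cyp2e1, a hepatocyte cytochrome P450, had replicate-number means of 8.21, 6.89 and 7.21 (adjusted p = 0.0165), highest in number 1. Asgr1 was also highest in number 1, with means of 5.70, 5.07 and 4.88 (F test adjusted p = 0.0620). Serpina1a was highest in number 2, with means of 6.77, 6.87 and 6.37 (F test adjusted p = 0.18). Cps1, a urea cycle enzyme of hepatocytes, was lowest in number 1, with means of 10.00, 10.32 and 10.63 (adjusted p = 0.119).

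Cd68, a lysosomal protein abundant in macrophages, had means of 9.75, 8.50 and 9.98 (adjusted p = 0.0141), lowest in number 2. The macrophage markers Marco (3.94, 4.56 and 4.43) and Vsig4 (2.48, 3.04 and 2.75) were highest in number 2, as were 6 of the 7 endothelial markers. Pdk4, the kinase that inhibits pyruvate dehydrogenase, had means of 6.16, 7.09 and 7.02 (adjusted p = 0.0231). The part of these markers in the pattern of the 35 genes was not tested.

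**Figure D4:**
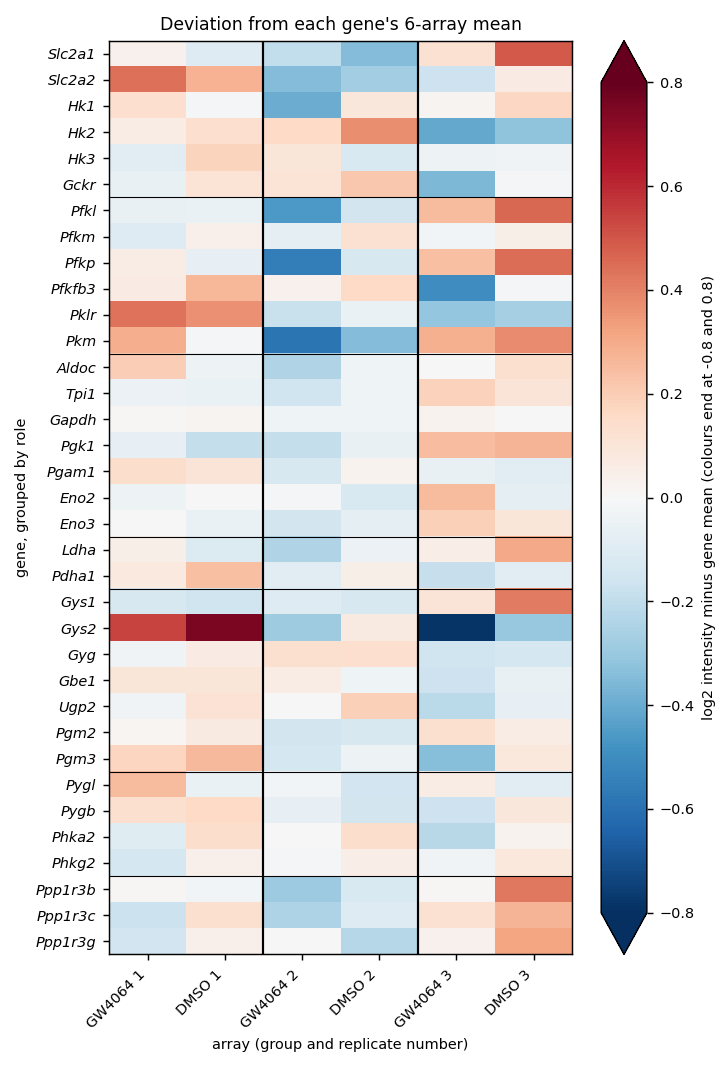
Log2 intensity of each of the 35 genes minus its 6-array mean, with genes in rows by role and arrays in columns by replicate number, GW4064 left of DMSO; the colours end at -0.8 and 0.8. Same-numbered arrays share colours in many rows, such as Gys2, Pklr, Hk2 and Pkm.

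Of 79 other genes listed for the same pathways and their regulators, 67 were measured, and 43 of these averaged lower with GW4064. That is 64.2%, against 55.4% of all genes and 60.7% of genes above the median level. The median change was -0.052, against -0.016 over all genes. By the adjusted test 1 of the 67 passed, against 0.0496% of all genes. It was Nr0b2, which is also 1 of the 3 response-check genes. None passed among 22 other glycolysis genes (12 lower), 15 other glycogen genes (8 lower) or 13 genes around pyruvate dehydrogenase (9 lower). Of the 17 regulators, 14 averaged lower (82.4%). At an unadjusted p under 0.05, 3 of the 67 were higher and 5 lower, against 5.66% of all genes in either direction.

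Nr1h4, which encodes FXR, measured 7.13, 7.08 and 6.94 with GW4064, against 7.81, 7.78 and 7.73 with DMSO. The groups did not overlap and the change was -0.72 (SE 0.09), but the adjusted p of 0.0535 missed the threshold. It passed in 2 of 16 alternative fits, with genes below the median level left out (0.0434) and with a mean-dependent, robust prior (0.0171). In the other 14 it did not pass, with an adjusted p of 0.0618 with the block and 0.237 without GW4064 replicate 1. The highest of these adjusted p-values was 0.795. Hnf4a, a hepatocyte nuclear receptor that binds many glucose genes, had a change of 0.55 (SE 0.12, adjusted p = 0.393) with no overlap between the groups.

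Txnip, an inhibitor of glucose uptake and a glucose-responsive gene, measured 6.30, 6.04 and 6.92 with GW4064, against 6.77, 7.44 and 7.58 with DMSO. It was lower with GW4064 in each pair, GW4064 replicate 3 overlapped with DMSO replicate 1, and the change was -0.85 (SE 0.25, adjusted p = 0.739; 0.265 with the block). The other genes under the unadjusted threshold were Pdp2, a pyruvate dehydrogenase phosphatase (0.30, adjusted p = 0.776), Slc2a9, a urate and hexose transporter (-0.27, adjusted p = 0.858), Foxo1, an insulin-regulated activator of glucose production genes (-0.30, adjusted p = 0.797), and Usf1, an E-box factor (-0.33, adjusted p = 0.802).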

How the data were processed

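Array intensities were measured in 6 samples of mouse primary hepatocytes, 3 with GW4064 and 3 with DMSO, grouped by sample titles. The authors deposited 1 log2 intensity for each probe set of each array. They are RMA values, per the submitters' processing notes, which name Partek too and give no version of either. The notes give no log base, and the lowest and highest values, 0.94 and 13.07, are those of a log2 scale. The genome build behind the probe sets is not given in the sources used here. Of 41345 probe sets, 23521 carried 1 gene symbol, 1814 several and 16010 none. The probe set with the highest mean stood for each of 22180 genes. The number of arrays limits the precision, and array medians differed by at most 0.0527.

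Genes were tested with limma 3.58.1 in R 4.3.3 (lmFit and eBayes) on all 6 arrays, with Benjamini-Hochberg adjustment over all genes and a threshold of 0.05. A moderated F test asked whether replicate numbers differed with group in the model. The scripts were tested on simulated data. Each p-value sets a difference against the spread between these samples, moderated over all genes. Without the block, that spread includes differences between replicate numbers. With 3 arrays a group, exact permutation cannot reach a p under 0.1, so it was not used. Same-numbered arrays deviated together from their group means, with correlations over all genes of 0.26, 0.34 and 0.45. Of the arrays of the other group, each array correlated best with the one of the same number. Arrays of the same group were not compared in this way. The fit with the number as a block is therefore given where it moved a result. That pairing comes from the data and the shared numbers and not from a label.

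All 35 genes are named. Values on all arrays are given for 20 of them: those with an unadjusted p under 0.05 in either fit, those passing the F test, and those with liver and non-liver isozymes. Of the other pathway genes, 10 had such a p in either fit and the 8 with the smallest are named. Members, lists and tests were chosen with earlier results of these data known. The motifs, and the F test without single arrays, were chosen after values were seen. Alternatives were the block, other scalings, filters on dim genes, the mean over probe sets, a mean-dependent robust prior and leaving out arrays. The fits between GW4064 and DMSO with arrays left out had no block.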

Additional observations from a re-analysis of the deposited data

How the results depend on the processing

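None of the 35 genes passed between GW4064 and DMSO in any of the 16 alternatives, the replicate block included, and their median change stayed between -0.14 and -0.04. The count of all genes called was 11, against 18 with the replicate block, 17 with a mean-dependent robust prior and 2 to 5 with arrays left out. The blocked fit changed no other call among the genes named. The count that differed between replicate numbers was 238 genes and 1 of the 35. Among genes above the median level it was 669, with 6 of the 29 tested there. It was 1856 and 13 with the mean-dependent robust prior, and 8 to 264 and 0 to 2 with 1 array left out. Of the 35 genes, 31 averaged lower, against 28 with quantile normalization and 19 to 31 with arrays left out. The sign of the change turned under quantile normalization for Pkm (0.0094), Gapdh (-0.0164), Pgk1 (0.0108), Gbe1 (0.0071) and Pgm2 (0.0169), with median centring for Pgm2 (0.0000), and with the mean over probe sets for Slc2a1 (0.0449). With arrays left out it turned for Slc2a1 (-0.21 to 0.21), Slc2a2 (-0.28 to 0.11), Hk2 (-0.32 to 0.0457), Hk3 (-0.14 to 0.10), Pfkl (-0.34 to 0.0111), Pfkp (-0.33 to 0.063), Pklr (-0.26 to 0.14), Pkm (-0.19 to 0.28), Aldoc (-0.17 to 0.0806), Tpi1 (-0.11 to 0.0653), Gapdh (-0.0110 to 0.0224), Pgk1 (-0.14 to 0.12), Pgam1 (-0.11 to 0.0356), Eno3 (-0.0639 to 0.11), Ldha (-0.22 to 0.0314), Gys1 (-0.18 to 0.10), Gyg (-0.12 to 0.0310), Gbe1 (-0.0561 to 0.0740), Pgm2 (-0.0696 to 0.0685), Pygb (-0.16 to 0.0229) and Ppp1r3g (-0.24 to 0.0553). Fewer arrays, and fewer genes under the filters, entered those fits, and the causes of the other differences were not tested. The median distance from the change to either end of its 95% interval was 0.30 on the log2 scale over the 35 genes, and 0.21 with the block.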
